A study of Mus musculus with 12 samples.

Results

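After 5 h with dead cells, CD8α+-like dendritic cells lacking DNGR-1 (the Clec9a gfp/gfp genotype) were compared with wild-type (WT) cells kept with dead cells for the same time. The comparison used 6 of the 12 expression arrays of the series, chosen by their labels, with 3 arrays per genotype and all 23238 rows of the array. The cells were grown for 10 days from C57BL/6 mouse bone marrow with Flt3 ligand at 100 ng/ml and, after any exposure to dead cells, were sorted as CD24-high, CD11b-low and B220-negative. Clec9a gfp/gfp cells are homozygous for a gfp allele of Clec9a in every cell. The dead cells had been exposed to UVC at 240 mJ/cm2 and kept in culture for 24 h, and their cell of origin is not given in the labels. The other 6 arrays were 3 of untreated Clec9a gfp/gfp cells and 3 of untreated WT cells, labelled 0 h, so a difference from untreated joins the dead cells and the time in culture. Nothing in the labels ties the 3 replicates of a group to separate mice or cultures, and the p-values therefore cover the spread between these samples alone.

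CD8α+-like dendritic cells are the culture counterpart of conventional type 1 dendritic cells (cDC1), which take up dying cells and present their antigens to CD8+ T cells. DNGR-1, the product of Clec9a, belongs to the C-type lectins and recognises actin filaments that become exposed when a cell loses membrane integrity. The receptor signals through the kinase Syk and is known mainly for directing dead cell cargo towards cross-presentation rather than for activating the dendritic cell. Activation by other routes raises interferon-stimulated genes, costimulatory molecules, cytokines and NF-kB target genes, so the question addressed is whether these programmes reach the same level without the receptor.

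Values are linear intensities, and differences are Clec9a gfp/gfp minus WT on the log2(intensity + 16) scale with the standard error (SE), from a limma fit of all 12 arrays. This scale understates the change of dim genes. Rows with a p under 0.05 after Benjamini-Hochberg adjustment over the whole table are the ones named as called. The median intensity was 77.9 to 83.6 on the 3 Clec9a gfp/gfp arrays with dead cells and 78.3 to 85.9 on the 3 WT arrays. The arrays are bulk samples, in which fewer cells of a type and less RNA per cell cannot be told apart.

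Clec9a separated the genotypes in every array. It read 1.38, 3.99 and 0.59 in the 3 Clec9a gfp/gfp samples with dead cells, against 1496, 1372 and 1471 in the 3 WT samples. The targeted gene was thus near 0 wherever the label says gfp/gfp, and the groups did not overlap. The difference was -6.35 ± 0.11 (SE, adjusted p = 3.45e-10, limma). Without a pseudocount it was -9.93 with adjusted p = 0.613 on values of which the lowest, in untreated Clec9a gfp/gfp cells, was 0.0086. Untreated, Clec9a read 4.16, 0.0086 and 3.88 in Clec9a gfp/gfp cells and 2646, 2648 and 2581 in WT cells.

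Clec9a was the only row of 23238 called between the genotypes with dead cells (0.0043%). At an unadjusted p under 0.05, 1308 rows passed (5.63%), 562 of them with the Clec9a gfp/gfp level above WT (2.42%) and 746 with it below (3.21%). The arrays of the 2 genotypes did not overlap for 2009 rows (8.65%), with 906 higher (3.9%) and 1103 lower (4.75%). Since a missed threshold does not show equal levels, the 95% interval of each difference was read too. It lay within 2-fold for 20540 rows (88.4%) and within 1.5-fold for 15112 rows (65%). Among the 14120 rows with a mean of at least 64 over all arrays, these shares were 95.1% and 79.6%, and the median absolute difference was 0.09 against a median SE of 0.13. Among the 10397 genes with 1 symbol and such a mean, the shares were 98.3% and 88.9%.

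**Figure D1:**
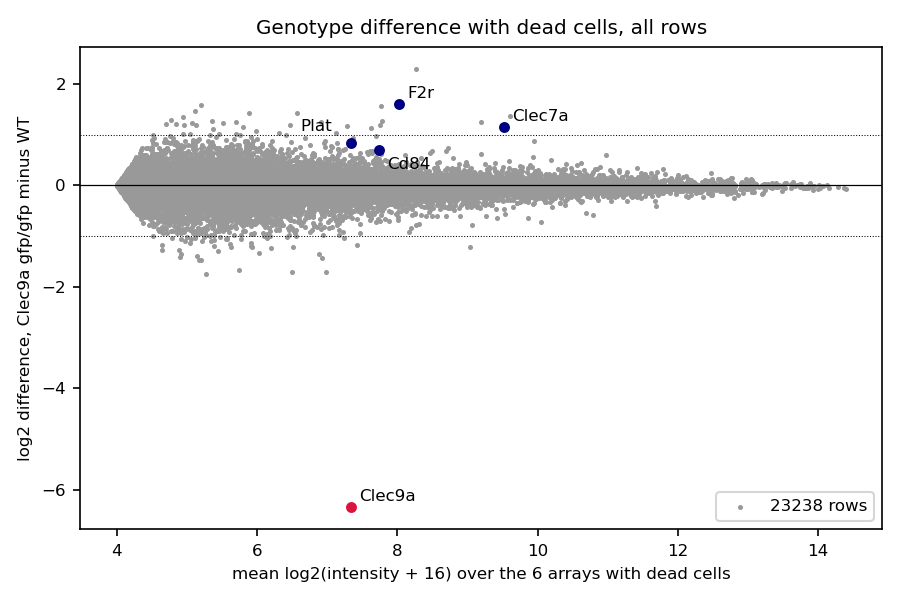
Each grey point is 1 of the 23238 rows, with its mean log2(intensity + 16) over the 6 arrays with dead cells on the x axis and its log2 difference, Clec9a gfp/gfp minus WT, on the y axis. Dotted lines mark 2-fold. Clec9a (red) lies at -6.35, far below all other rows, and Clec7a, Cd84, F2r and Plat (blue) are the 4 genes of next smallest p.

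Few genes of the activation programmes lay far apart between the genotypes, as over genes in general. Of 278 genes listed in 11 activation programmes, 228 were measured by a row with a single gene symbol. The 95% interval lay within 2-fold for 223 of them (97.8%) and within 1.5-fold for 182 (79.8%), and none was called, against 0.0043% of all rows. These shares were near those of all 14807 genes with 1 symbol, 96.8% and 82.5%. Among genes with 1 symbol and a mean of at least 64 they were 98.3% and 88.9%. The share within 2-fold thus describes no property of the activation genes in particular. That within 1.5-fold was below the share of the brighter genes, and no test compared them. Their median difference was 0.00, with 117 above 0 and 111 below it, and the number above 0 was 126 with quantile normalization and 131 where array medians were made equal. At an unadjusted p under 0.05, 10 lay above WT (4.39%) and 3 below it (1.32%), against 2.42% and 3.21% of all rows. The Clec9a gfp/gfp samples lay wholly above the WT samples for 23 of the 228 (10.1%) and wholly below for 9 (3.95%). These shares were 3.9% and 4.75% over all rows. Among genes with 1 symbol and a mean of at least 64 they were 4.15% and 3.61%. The excess above WT was not tested. The median of all rows was -0.01.

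**Figure D2:**
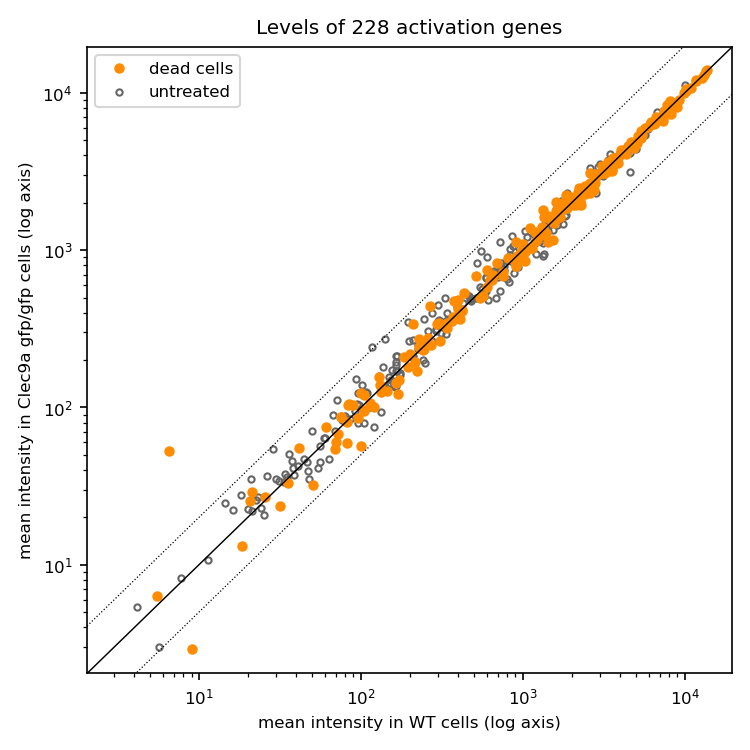
Mean intensity of the 228 activation genes in Clec9a gfp/gfp cells (y axis) against WT cells (x axis), both on log axes, with n = 3 arrays per mean. Filled orange points are levels with dead cells and open grey points untreated levels; the solid line is equality and the dotted lines are 2-fold. The orange points lie along the line of equality over the whole range, with Hsp90aa1, a dim row, the point farthest above it.

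Interferon-stimulated genes were raised by dead cells to closely similar levels in both genotypes. All 35 measured members rose with dead cells in the averaged response of both genotypes, in which 56.6% of all rows were called, 22.1% as rises and 34.6% as falls. The interval of the genotype difference lay within 2-fold for 34 and within 1.5-fold for 28, and the median difference was 0.03. Rsad2, which encodes the antiviral enzyme viperin, read 8788, 8942 and 7292 in Clec9a gfp/gfp cells and 7937, 8289 and 9163 in WT cells with dead cells. The 2 groups overlapped, and the difference was -0.02 ± 0.14 (95% interval -0.34 to 0.29). Untreated, Rsad2 was at 33.6 to 47.2 in Clec9a gfp/gfp cells and 39.6 to 58.7 in WT cells. Oasl1, a negative regulator of Irf7 translation, read 11080, 10400 and 10599 in Clec9a gfp/gfp cells against 10866, 10757 and 11007 in WT cells, a difference of -0.02 ± 0.10. Ifit1 and Ifit2, whose products act against viral RNA, differed by 0.15 ± 0.31 and 0.03 ± 0.30. Their intervals were wider, from -0.53 to 0.82 for Ifit1, whose untreated arrays ran between 13.4 and 45.3 in Clec9a gfp/gfp cells and between 3.60 and 27.6 in WT cells, all 12 arrays sharing 1 estimate of the spread.

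The member with the lowest difference was Zbp1, a sensor of Z-form nucleic acid. It read 1970, 1898 and 1966 in Clec9a gfp/gfp cells and 2386, 2283 and 2192 in WT cells. The groups were apart, at -0.23 ± 0.14 (unadjusted p = 0.13, adjusted p = 0.938, limma). Irf7, the transcription factor that amplifies interferon production, did not overlap either, at 7810, 7448 and 6923 against 8126, 8153 and 8299 (-0.15 ± 0.10, adjusted p = 0.943). In all, 5 of the 35 members had Clec9a gfp/gfp samples wholly below the WT samples and 1 wholly above, where 4.75% and 3.9% of all rows did so. The member with an interval beyond 2-fold was Gbp7, a guanylate-binding protein gene, at 0.60 ± 0.27 (adjusted p = 0.886). Its Clec9a gfp/gfp replicate 3, at 213, lay among the WT values of 191 to 250. Of 8 type I and III interferon genes listed, 3 were measured. With dead cells 1 of the 3 had a mean under 16 in each genotype. In the averaged response 1 of the 3 was called as a rise, where 22.1% of all rows were. Ifnb1 read 164, 106 and 112 in Clec9a gfp/gfp cells and 98.4, 154 and 181 in WT cells, with a difference of -0.15 ± 0.20.

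Promoters of a part of these genes carry a sequence that interferon-activated transcription factors are known to bind. The motif, 2 copies of GAAA with 2 bases of any kind between them, was searched on both strands in the 250 bases before the annotated start. It was present for 13 of the 26 interferon-stimulated genes that were matched to a promoter (50%) and for 3.46% of 27025 genes. These stretches, from the RefSeq promoters of GRCm38.p6, are written 5′ to 3′ on the gene's strand. They show the motif with 25 bases on each side for 4 list members of large averaged response that hold it. Capitals mark the motif, which appears here as its reverse complement, with TTTC in place of GAAA.
Rsad2, chr12:26456538-26456597, minus strand: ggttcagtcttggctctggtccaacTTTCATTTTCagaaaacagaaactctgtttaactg
Ifit1, chr19:34640760-34640838, plus strand: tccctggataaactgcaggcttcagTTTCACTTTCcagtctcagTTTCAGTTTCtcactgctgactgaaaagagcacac
Gbp5, chr3:142496744-142496803, plus strand: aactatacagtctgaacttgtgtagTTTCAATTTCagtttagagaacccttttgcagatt
Slfn8, chr11:83020824-83020883, minus strand: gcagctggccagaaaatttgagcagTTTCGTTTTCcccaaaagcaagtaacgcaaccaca
Ifit1 holds 2 copies of the motif and the other 3 genes 1 each in the stretch shown. A match describes the letters of the promoter and not binding. Gbp5, another guanylate-binding protein gene, and Slfn8, of the schlafen family, differed between the genotypes by 0.09 ± 0.20 and -0.14 ± 0.14.

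Dendritic cell maturation genes reached like levels in both genotypes. Of the 33 measured members 32 rose with dead cells, where 22.1% of all rows were called as rises. All 33 had a genotype interval within 2-fold and 29 within 1.5-fold (87.9%). Among genes with 1 symbol and a mean of at least 64, these shares were 98.3% and 88.9%. With dead cells their mean log2 level was 10.76 in Clec9a gfp/gfp cells, against 10.75 in WT cells, and untreated it was 8.15, against 7.90. The median genotype difference was 0.01 with dead cells and 0.18 untreated. At an unadjusted p under 0.05, 3 members lay above WT with dead cells, where 2.42% of all rows did. Untreated, 13 lay above WT and none below, where 4.49% of all rows passed, 2.64% above and 1.85% below. The Clec9a gfp/gfp and WT samples of the 2 treatments share no array, and a difference of the 2 medians was not tested.

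Cd40, the costimulatory receptor for CD40 ligand on T cells, read 4738, 4694 and 5014 in Clec9a gfp/gfp cells and 5403, 4743 and 5056 in WT cells with dead cells (-0.07 ± 0.09). Its untreated difference was 0.31 ± 0.09 (adjusted p = 0.963). Cd274, the gene of the inhibitory ligand PD-L1, was among the 7 rows called in untreated cells (0.0301%), 6 of them higher in Clec9a gfp/gfp cells (0.0258%). Its untreated levels were 280, 285 and 249 in Clec9a gfp/gfp cells against 138, 131 and 155 in WT cells (0.87 ± 0.09, adjusted p = 0.0121, limma). With dead cells it read 6673, 6285 and 6091 against 6276, 5848 and 6227. The groups overlapped there, and the difference was 0.05 ± 0.09, with an interval of -0.15 to 0.25. The untreated call held in 18 of 24 alternative settings, with an adjusted p of up to 0.243 when only the 6 untreated arrays were fitted, and was lost without untreated replicate 1 or 2 of either genotype. Pdcd1lg2, the gene of PD-L2, the other PD-1 ligand, differed by 0.07 ± 0.21 with dead cells.

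Of the maturation list, 4 members had Clec9a gfp/gfp samples wholly above the WT samples and 1 wholly below with dead cells, where 3.9% and 4.75% of all rows did so. Fscn1 and Stat4 were 2 of the 4. Fscn1, the actin-bundling protein of mature dendritic cells, read 1779, 1878 and 1765 in Clec9a gfp/gfp cells and 1445, 1229 and 1324 in WT cells. Stat4, a signal transducer of interleukin-12, read 1150, 1195 and 1042 against 972, 927 and 824. Neither passed the threshold, at 0.44 ± 0.15 (adjusted p = 0.778) and 0.31 ± 0.11 (adjusted p = 0.813), and both had larger differences untreated (0.78 and 0.79).

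The NF-kB pathway and its targets had a median absolute genotype difference of 0.05. It was 0.11 over all rows and 0.08 over genes with 1 symbol and a mean of at least 64. Other lists were alike, with 0.06 for interferon-stimulated genes and 0.05 for the NRF2 targets described below. Of 24 NF-kB genes, 23 rose with dead cells, where 22.1% of all rows were called as rises. All 24 intervals lay within 2-fold and 23 within 1.5-fold, and the median difference was -0.04. Tnip3, an inhibitor of NF-kB signalling, read 7646, 7895 and 8229 in Clec9a gfp/gfp cells and 8617, 7570 and 7277 in WT cells (0.02 ± 0.09). Untreated it read 371, 365 and 366 against 246, 263 and 229, a difference of 0.55 ± 0.09 (adjusted p = 0.151). Traf1, an adaptor of tumour necrosis factor receptors, had values of the same kind, at -0.05 ± 0.10 with dead cells and 0.56 ± 0.10 untreated (adjusted p = 0.205). Gadd45b, a stress-response gene, and Cflar, an inhibitor of caspase-8, differed by 0.01 ± 0.12 and -0.03 ± 0.19.

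The κB-type motif GGGA, any base, TT, any base, CC was present, on either strand, in the promoters of 6 of the 21 matched NF-kB list genes (28.6%) and of 1.13% of all genes. The wider pattern, GGGA and CC with 4 bases of any kind between them, which includes it, was present in 9 of the 21 (42.9%) and in 19.7% of all genes. The motif is in capitals in the stretches of 3 list members of large averaged response that hold the narrower form.
Tnip3, chr6:65590319-65590378, plus strand: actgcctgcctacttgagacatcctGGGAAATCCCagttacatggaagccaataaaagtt
Tnip1, chr11:54962963-54963022, minus strand: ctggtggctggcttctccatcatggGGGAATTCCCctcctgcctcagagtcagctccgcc
Nfkb2, chr19:46304673-46304732, plus strand: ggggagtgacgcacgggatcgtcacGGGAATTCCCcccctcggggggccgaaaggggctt
Tnip1 encodes another inhibitor of NF-kB signalling and Nfkb2 the p100 subunit, and they differed by 0.00 ± 0.11 and -0.07 ± 0.09.

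Inflammatory and T cell polarising cytokines also ended within 2-fold in all 24 measured genes and within 1.5-fold in 17. Il12b, the shared p40 subunit of interleukin-12 and interleukin-23, read 12705, 11479 and 12864 in Clec9a gfp/gfp cells and 13978, 11448 and 12824 in WT cells (-0.04 ± 0.24). Il6 read 1181, 1629 and 1122 against 1040, 1231 and 1305 (0.12 ± 0.20). Il15, which sustains CD8+ T cells, and Tnfsf15, a ligand that costimulates T cells, differed by 0.03 ± 0.16 and -0.25 ± 0.21. Il1a and Il18, both of the interleukin-1 family, were dimmer. Il1a read 75.3, 49.4 and 53.5 against 84.9, 72.2 and 89.0 (-0.39 ± 0.15, adjusted p = 0.843), and Il18 182, 176 and 153 against 228, 249 and 185 (-0.34 ± 0.14, adjusted p = 0.854). Il1a overlapped between the groups, with 75.3 above the lowest WT sample, and Il18 did not.

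Among 20 chemokine genes, 19 intervals lay within 2-fold and 11 within 1.5-fold. Cxcl10 read 10061, 12014 and 8868 in Clec9a gfp/gfp cells and 8533, 10920 and 11138 in WT cells. Cxcl9 and Cxcl11, the other ligands of Cxcr3, differed by -0.05 ± 0.23 and 0.21 ± 0.29. Ccl22, which attracts Ccr4-bearing T cells, differed by -0.15 ± 0.22. Cxcl2, a neutrophil attractant, did not overlap, at 456, 476 and 485 against 423, 361 and 344 (0.32 ± 0.13, adjusted p = 0.854). Relative to untreated cells, Cxcl2 fell by 1.61 (log2) in Clec9a gfp/gfp cells and fell by 2.18 in WT cells. Cxcl12, abundant in stromal cells, had the interval beyond 2-fold, from -1.40 to 0.04.

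Intervals of the immediate early genes and stress programmes also lay mostly within 2-fold. Of 30 immediate early genes all had intervals within 2-fold, and 22 within 1.5-fold. Nr4a3, a nuclear receptor gene of activated dendritic cells, read 8573, 8326 and 8254 in Clec9a gfp/gfp cells and 7338, 7653 and 8179 in WT cells. The groups were apart, at 0.12 ± 0.17. In this list 5 genes had Clec9a gfp/gfp samples wholly above WT (3.9% of all rows did) and none wholly below. Dusp4, a MAP kinase phosphatase, was one of them, at 2446, 1933 and 1720 against 1479, 1695 and 1650 (0.32 ± 0.27). Of 20 hypoxia and glycolysis genes all had intervals within 2-fold, and 19 within 1.5-fold. Pfkfb3, an activator of glycolysis, differed by 0.04 ± 0.11 and the lactate exporter gene Slc16a3 by -0.05 ± 0.14. In this list 2 of the 20 genes had Clec9a gfp/gfp samples wholly above WT and 1 had them wholly below (10% and 5%), where 3.9% and 4.75% of all rows did so. The gene below was Slc2a3, the glucose transporter GLUT3, at 1102, 1238 and 1146 against 1367, 1614 and 1601 (-0.39 ± 0.11, adjusted p = 0.754).

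NRF2 targets had 13 of 14 intervals within 2-fold. The interval beyond it belonged to Txn1, thioredoxin, a dim row at -0.39 ± 0.46. Slc7a11, the cystine transporter that feeds glutathione synthesis, reached nearly as far, at 0.37 to 1.00. Slc7a11 read 408, 510 and 406 in Clec9a gfp/gfp cells and 293, 228 and 285 in WT cells. The groups were apart with dead cells by 0.68 ± 0.14 (adjusted p = 0.478), and the untreated difference was 0.67 ± 0.14, and the gene rose by 2.69 in Clec9a gfp/gfp cells, against 2.68 in WT cells. Gclc, the catalytic subunit for glutathione synthesis, and Srxn1 differed by -0.01 ± 0.14 and 0.10 ± 0.14. Hmox1, heme oxygenase 1, read 2950, 2999 and 3318 against 2651, 2628 and 2561, groups that were apart (0.24 ± 0.13, adjusted p = 0.909).

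Heat shock genes were above WT in 8 of 9 measured members, with a median difference of 0.16, and in 8 of 9 with either scaling of the arrays. None was called and the untreated median was 0.04. Hspa1a, the inducible HSP70, read 1886, 2142 and 2471 against 2138, 1870 and 1969, and its groups overlapped. The interval outside 2-fold belonged to Hsp90aa1, whose row was dim at 71.1, 68.1 and 18.9 in Clec9a gfp/gfp cells and 1.28, 18.3 and 0.0092 in WT cells. Of 23 genes of the unfolded protein and integrated stress response all lay within 2-fold, and 20 within 1.5-fold. Asns, asparagine synthetase, read 1263, 1400 and 1491 against 1149, 948 and 1217 (0.33 ± 0.13, adjusted p = 0.843). Eif2ak3, the stress kinase PERK, was 0.30 ± 0.10 with dead cells (adjusted p = 0.76) and 0.30 ± 0.10 untreated.

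Antigen presentation genes were close in level. All 12 measured MHC class I presentation genes and all 8 class II genes had intervals within 1.5-fold, with medians of -0.06 and 0.00. Of the class I genes 3 lay above WT and 9 below it, and 3 lay above it with either scaling of the arrays. Of the class II genes 4 lay above WT and 4 below it. The peptide transporter genes Tap1 and Tap2 differed by -0.11 ± 0.09 and -0.07 ± 0.08. Psmb9, an immunoproteasome subunit, read 5657, 5072 and 5374 in Clec9a gfp/gfp cells and 6107, 5798 and 6453 in WT cells. The groups were apart, at -0.19 ± 0.08 (adjusted p = 0.882, limma). Marchf1, the ubiquitin ligase that removes class II molecules from the surface, differed by 0.27 ± 0.11 (adjusted p = 0.854).

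Genes of Syk signalling, the route used by DNGR-1, were also within 2-fold in all 23 measured members and within 1.5-fold in 20. Btk, a kinase downstream of Syk, Inpp5d, a lipid phosphatase, and Malt1, a paracaspase, differed by -0.09 ± 0.13, 0.19 ± 0.11 and -0.06 ± 0.09. Fgr, a Src family kinase gene called in untreated cells (0.90 ± 0.12, adjusted p = 0.0418), read 132, 131 and 132 in Clec9a gfp/gfp cells against 105, 110 and 88.5 in WT cells with dead cells. The groups remained apart there, at 0.34 ± 0.12 (adjusted p = 0.778). The untreated call of Fgr held in 9 of 24 alternative settings, with an adjusted p of up to 0.45, and of the fits without 1 array only those without WT dead cell replicate 3 or untreated WT replicate 1 kept it. All 33 receptors and bridging molecules for dead cells had intervals within 2-fold, and 27 within 1.5-fold. The scavenger receptor genes Mrc1 and Stab1 differed by -0.04 ± 0.24 and -0.02 ± 0.18, and Havcr2 (TIM-3) by 0.22 ± 0.10.

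**Figure D3:**
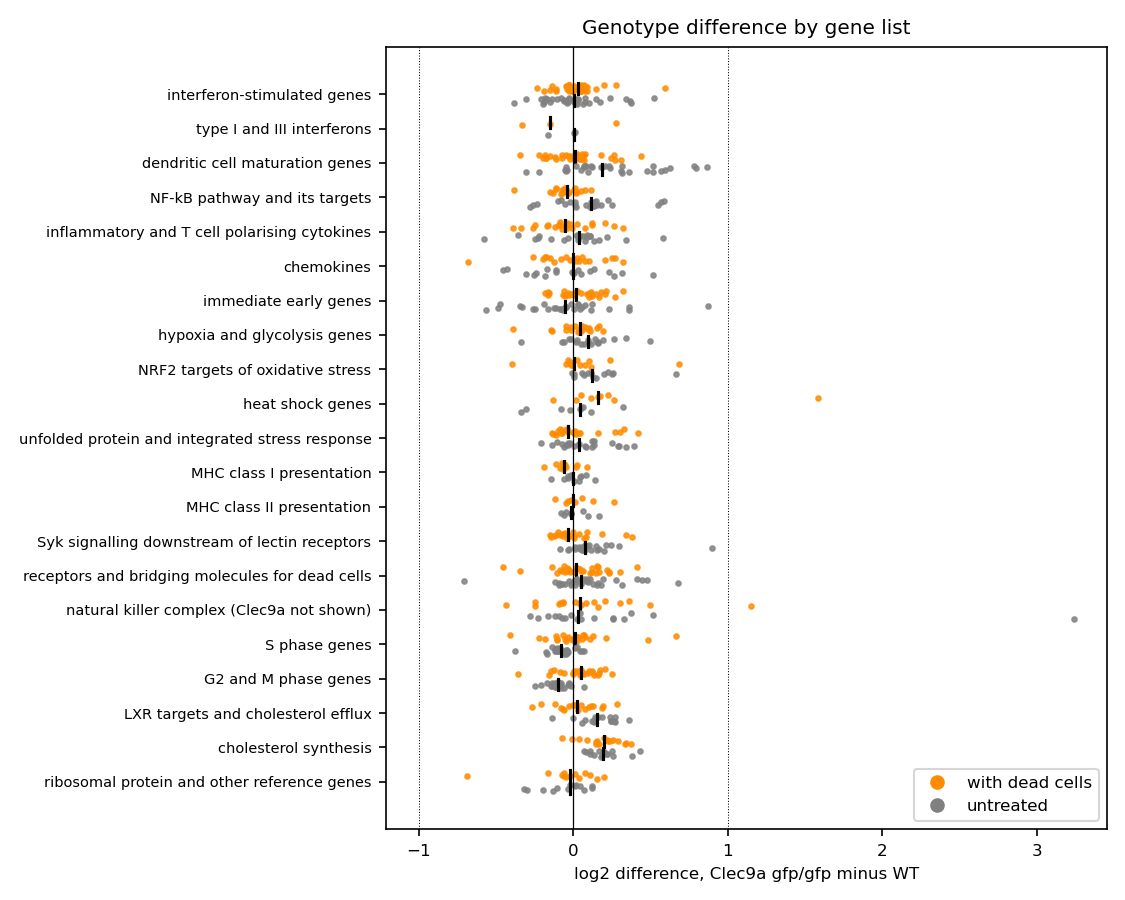
Log2 differences, Clec9a gfp/gfp minus WT, of the members of each functional list, with dead cells (orange) and untreated (grey). Each point is 1 gene, black bars are list medians and dotted lines mark 2-fold. The medians with dead cells lie near 0 except for heat shock genes (0.16), cholesterol synthesis (0.20) and the 3 type I and III interferon rows (-0.15). Clec7a, at 3.24 untreated, is the point farthest to the right.

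Cholesterol synthesis genes lay mostly above WT in both treatments. Of 17 measured genes 15 were above WT with dead cells, with a median of 0.20, and all 17 were above it untreated, with a median of 0.19. The median with dead cells was 0.21 with quantile normalization and 0.22 with equal array medians. At an unadjusted p under 0.05, 5 of the 17 lay above WT (29.4%, against 2.42% of all rows), and 6 had all Clec9a gfp/gfp samples above WT, against 3.9% of all rows. None was called. Sqle, squalene epoxidase, read 504, 684 and 561 in Clec9a gfp/gfp cells and 430, 448 and 486 in WT cells (0.34 ± 0.13, adjusted p = 0.852). Lss, lanosterol synthase, read 79.4, 108 and 106 against 68.5, 73.1 and 79.4 (0.33 ± 0.12, adjusted p = 0.815), groups that just failed to overlap. Nsdhl, a sterol dehydrogenase, differed by 0.38 ± 0.15 (adjusted p = 0.854), while Dhcr7, the last enzyme of the pathway, differed by 0.04 ± 0.17. LXR targets, which respond to sterol excess, had a median of 0.02, and the intervals of all 18 lay within 2-fold.

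Cell cycle genes were low in both genotypes with dead cells. Of 25 S phase genes 24 fell in the averaged response, in which 34.6% of all rows were called as falls. All 26 genes of the G2 and M phases fell, or 25 with either scaling of the arrays. The genotype interval lay within 2-fold for 24 and 26 of them, with medians of 0.01 and 0.05. Mcm6, a subunit of the replicative helicase, read 208, 217 and 195 in Clec9a gfp/gfp cells and 229, 200 and 187 in WT cells.

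The rows that moved most with dead cells were mostly level too. Among 826 rows raised at least 2-fold in the averaged response, which does not use the genotype difference, 762 (92.3%) had a genotype interval within 2-fold, and none was called. At an unadjusted p under 0.05, 23 of them lay above WT and 21 below with dead cells (2.78% and 2.54%), and 120 above and 21 below untreated (14.5% and 2.54%). Among 4456 rows lowered at least 2-fold, 4239 (95.1%) lay within 2-fold. The share within 2-fold was 88.4% over all rows and 95.1% over rows with a mean of at least 64. The choice of rows and the intervals used the same estimate of the spread for each row. The shares are therefore not independent of the choice, and no test compared them.

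Clec7a, a neighbour of Clec9a, remained apart with dead cells. Clec7a encodes dectin-1, the receptor for fungal beta-glucans, which like DNGR-1 signals through Syk. With dead cells Clec7a read 1099, 1045 and 1104 in Clec9a gfp/gfp cells and 525, 449 and 463 in WT cells. All Clec9a gfp/gfp samples lay well above all WT samples, a difference of 1.15 ± 0.15 (95% interval 0.83 to 1.48). Its adjusted p was 0.0614, just short of the threshold, and it was called in 6 of 24 alternative settings, where the adjusted p ran between 0.0066 and 0.325. Untreated levels were 3338, 2314 and 3409 against 266, 311 and 327 (3.24 ± 0.15, adjusted p = 4.04e-06). The change in the difference was -2.09 ± 0.21 (adjusted p = 0.0219), the 1 row called for such a change (0.0043%), and it was called in 11 of 23 alternative settings. Clec7a is the second gene after Clec9a in the RefSeq gene order of chromosome 6, with Clec1a between them. A role of the altered neighbouring gene was not tested.

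The 250 bases before the annotated starts of both genes are shown because Clec9a is the targeted gene and Clec7a the neighbour that stayed apart. Capitals mark GAGGAA, a core sequence that PU.1, a transcription factor of myeloid cells, is known to recognise, searched on both strands. It occurs once in the Clec7a stretch, not in the Clec9a stretch, and in the promoters of 25.9% of all genes.
Clec9a, chr6:129408612-129408861, plus strand: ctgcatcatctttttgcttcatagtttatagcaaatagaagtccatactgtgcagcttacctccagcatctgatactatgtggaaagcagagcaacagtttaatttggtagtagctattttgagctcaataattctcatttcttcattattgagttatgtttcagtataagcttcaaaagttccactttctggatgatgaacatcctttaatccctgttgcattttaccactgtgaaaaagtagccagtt
Clec7a, chr6:129472780-129473029, minus strand: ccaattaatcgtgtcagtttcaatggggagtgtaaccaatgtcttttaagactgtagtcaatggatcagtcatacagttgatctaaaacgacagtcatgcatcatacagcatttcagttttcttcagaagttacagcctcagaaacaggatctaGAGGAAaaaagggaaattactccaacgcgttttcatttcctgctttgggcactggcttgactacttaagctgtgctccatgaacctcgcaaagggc
The 2 stretches lie on opposite strands, and no match says only that these letters are not in the window.

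The other lectin and killer receptor genes of the natural killer gene complex, 19 with Clec9a and Clec7a, did not share one direction. In all, 11 were above WT and 8 below, with a median of 0.04. Clec12a, an inhibitory receptor for uric acid crystals, lies 3 genes before Clec9a. It read 385, 373 and 515 in Clec9a gfp/gfp cells and 576, 569 and 578 in WT cells (-0.44 ± 0.15, adjusted p = 0.794). Klrd1, the CD94 chain of NK receptors, read 134, 152 and 157 against 112, 108 and 114 (0.36 ± 0.15, adjusted p = 0.854). Clec2i, a ligand of an NK receptor, overlapped between the genotypes (-0.09 ± 0.28).

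A further 3 genes shared the adjusted p of 0.0614, and each had its Clec9a gfp/gfp samples wholly above the WT samples. Cd84, a self-ligating receptor of the SLAM family, read 243, 244 and 282 in Clec9a gfp/gfp cells against 147, 154 and 154 in WT cells (0.70 ± 0.09). It was apart in untreated cells too, at 1738, 1630 and 1640 against 1084, 1236 and 1105 (0.54 ± 0.09, adjusted p = 0.151). F2r, the thrombin receptor PAR1, read 459, 506 and 357 against 137, 92.2 and 186 (1.60 ± 0.21). Plat, tissue plasminogen activator, read 227, 209 and 167 against 111, 105 and 99.5 (0.83 ± 0.11).

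F2r and Plat were close to level before dead cells. Untreated F2r read 153, 157 and 172 in Clec9a gfp/gfp cells and 156, 136 and 116 in WT cells (0.22 ± 0.21), and Plat 38.9, 38.5 and 42.8 against 35.6, 40.3 and 35.2 (0.08 ± 0.11). In the averaged response Plat rose by 1.57 and F2r by 0.67. The F2r average joins genotypes that moved unlike each other. Its WT readings with dead cells overlapped the untreated WT readings. Its Clec9a gfp/gfp readings with dead cells lay wholly above the untreated ones. The change in the genotype difference was 1.37 for F2r and 0.75 for Plat, and neither was called. Cd84 was called in 6 of 24 alternative settings, F2r in 5 and Plat in 4. F2r was called without WT replicate 3 and Plat without Clec9a gfp/gfp replicate 3, both with dead cells.

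**Figure D4:**
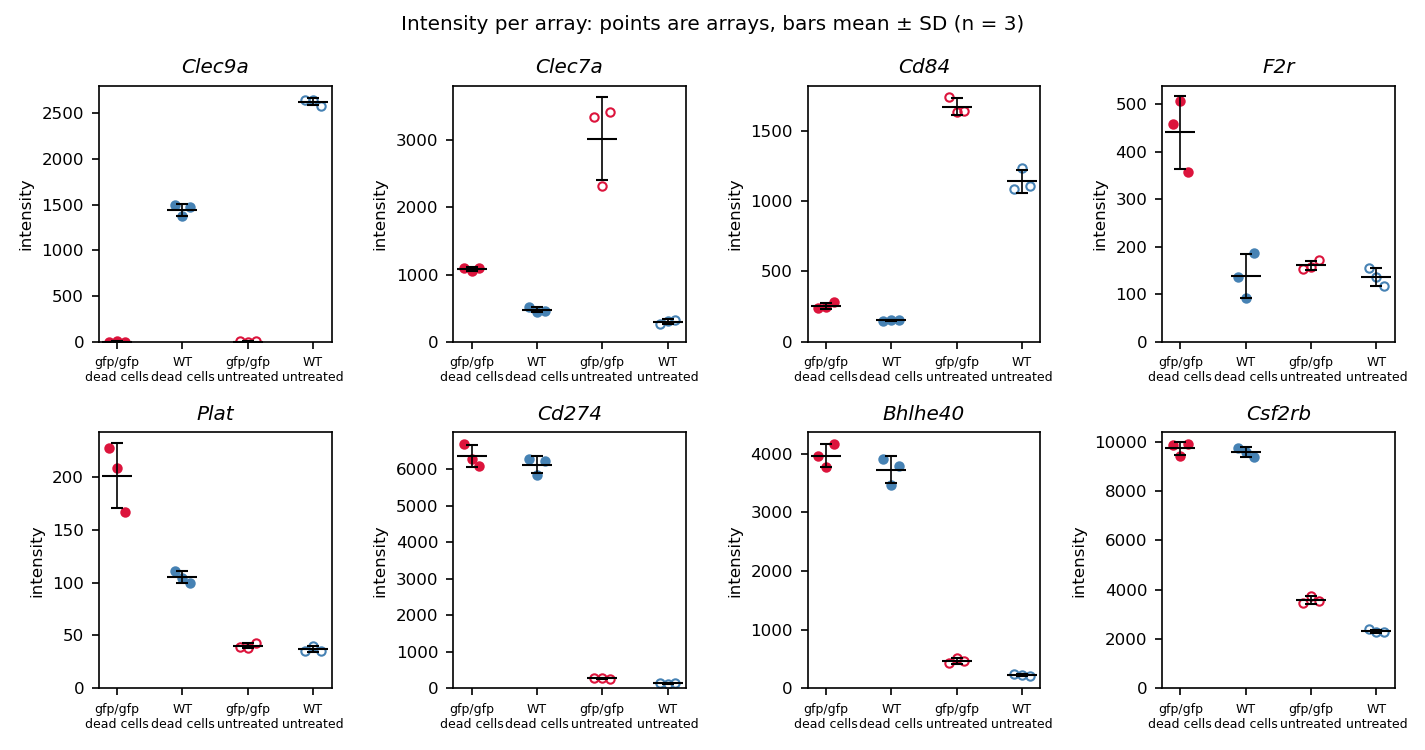
Intensity on each array for 8 genes, with the groups in the order Clec9a gfp/gfp with dead cells, WT with dead cells, Clec9a gfp/gfp untreated and WT untreated. Points are single arrays, and black bars give mean ± SD (n = 3). Clec7a and Cd84 are apart in both treatments, F2r and Plat are apart with dead cells and overlap untreated, and Cd274, Bhlhe40 and Csf2rb come together with dead cells.

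Bhlhe40 and Csf2rb, like Cd274, were called untreated and overlapped with dead cells. Bhlhe40, a transcription factor that restrains interleukin-10, read 3959, 3777 and 4163 in Clec9a gfp/gfp cells and 3914, 3467 and 3790 in WT cells (0.09 ± 0.11, interval -0.14 to 0.33). Untreated its difference was 0.99 ± 0.11 (adjusted p = 0.0124). Csf2rb, a receptor chain used by GM-CSF and related cytokines, read 9855, 9436 and 9904 against 9766, 9581 and 9363 (0.02 ± 0.07, interval -0.14 to 0.19). Untreated its difference was 0.63 ± 0.07 (adjusted p = 0.021). The untreated call held in 18 of 24 alternative settings for Bhlhe40 and in 12 of 24 for Csf2rb, with adjusted p of up to 0.286 and 0.328 when only the 6 untreated arrays were fitted. Bhlhe40 lost it without untreated replicate 2 or 3 of either genotype, and Csf2rb without any 1 array other than WT dead cell replicates 2 and 3. The changes in these differences missed the threshold, at -0.82 ± 0.13 for Cd274 (adjusted p = 0.375), -0.89 ± 0.15 for Bhlhe40 (0.527) and -0.60 ± 0.11 for Csf2rb (0.562).

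A further 10 genes completed the 15 with the smallest p with dead cells, none of them called. Rgs9, a regulator of G protein signalling, read 215, 244 and 250 in Clec9a gfp/gfp cells and 146, 139 and 139 in WT cells (0.68 ± 0.11, adjusted p = 0.217; untreated 0.74). Scin, the actin-severing protein scinderin, read 517, 509 and 492 against 371, 320 and 250 (0.68 ± 0.13; untreated 0.88). Tcn2, the vitamin B12 carrier transcobalamin 2, read 721, 818 and 603 against 431, 447 and 495 (0.62 ± 0.12; untreated 0.62). Pecam1, the adhesion molecule CD31, read 219, 255 and 195 against 151, 128 and 126 (0.66 ± 0.13; untreated 0.75). These 4 genes, with Clec7a and Cd84, had the same sign untreated at an unadjusted p under 0.05.

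The untreated differences of the other 6 were smaller. Trub1, a tRNA pseudouridine synthase, read 46.5, 39.1 and 45.1 in Clec9a gfp/gfp cells against 67.0, 69.8 and 68.1 in WT cells (-0.50 ± 0.08, adjusted p = 0.217), and its untreated difference was -0.03. Bag5, an HSP70 co-chaperone, read 153, 151 and 213 against 40.8, 55.4 and 103 (1.25 ± 0.25, adjusted p = 0.453), with -0.10 untreated. Tspyl3 read 43.1, 13.4 and 47.5 against 91.4, 111 and 90.9 (-1.24 ± 0.24, adjusted p = 0.381), with 0.00 untreated. Acp1, a phosphatase, Neu2, a sialidase, and Taar9, a receptor for trace amines, were dim and differed by 0.87 ± 0.16, 0.64 ± 0.12 and 0.63 ± 0.13.

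**Figure D5:**
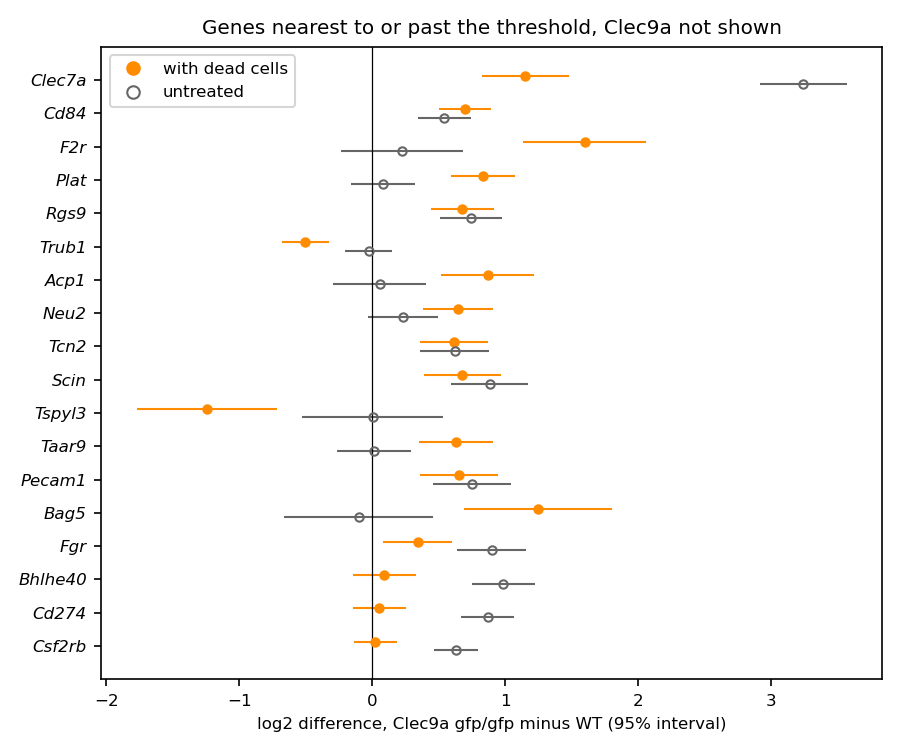
Log2 difference, Clec9a gfp/gfp minus WT, with its 95% interval for the 14 genes of smallest p with dead cells besides Clec9a, and for 4 further genes called untreated. Filled orange points are with dead cells and open grey points untreated. Clec7a, Cd84, Rgs9, Tcn2, Scin and Pecam1 lie right of 0 in both, while Bhlhe40, Cd274 and Csf2rb lie right of 0 untreated and at 0 with dead cells.

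Of the 14 genes besides Clec9a, 12 had the same sign untreated, 6 of them with an unadjusted p under 0.05 there, and none had the opposite sign at such a p. Over the 710 rows with a mean of at least 64 and an unadjusted p under 0.05 with dead cells, leaving out Clec9a, 434 had the same sign untreated. At an unadjusted p under 0.05 in both treatments, 81 had the same sign and 11 the opposite. Over all 14119 rows with a mean of at least 64 other than Clec9a, whatever their p with dead cells, 7256 had the same sign untreated. Of those with an unadjusted p under 0.05 untreated, 415 had the same sign and 209 the opposite. The 2 comparisons share no array, although they share the estimate of the spread for each row. Over genes with 1 symbol and a mean of at least 64, 68 had an unadjusted p under 0.05 in both with the same sign, 59 above WT and 9 below it. Of genes chosen from these 68 after their values were seen, Il1r2, the decoy receptor for interleukin-1, differed by 0.44 with dead cells and 0.55 untreated. F11r, a junctional adhesion molecule, differed by 0.54 and 0.75, and Abcb1a, a drug efflux pump, by 0.73 and 0.88. Slamf8, a receptor of the SLAM family, differed by -0.51 and -0.49.

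Some large differences came with scattered replicates. Leaving out Clec9a, 13 of 10396 genes with 1 symbol and a mean of at least 64 differed at least 2-fold, 9 above WT and 4 below it, and the genotypes overlapped in 6 of them. None of the 13 was called. Slc15a2, a peptide transporter gene singled out after its values were seen, had the highest difference of any row at 2.30 ± 0.63 (adjusted p = 0.715). It read 589, 953 and 525 in Clec9a gfp/gfp cells and 368, 142 and 28.2 in WT cells, with the WT samples far apart from one another.

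The sorted cells carried cDC1 markers in both genotypes, and the intervals of the markers other than Clec9a lay within 2-fold. Of 16 measured, 15 intervals lay within 2-fold, Clec9a being the exception, and 13 within 1.5-fold. Most of the 16 leaned below WT, with 4 above it and 12 below, Clec9a among the 12, and a median of -0.09. With either scaling of the arrays 5 of the 16 were above WT. This lean was not tested. Irf8 and Id2, transcription factors of the lineage, differed by -0.02 ± 0.11 and -0.03 ± 0.10, Naaa by -0.14 ± 0.08, Ly75 (DEC-205) by -0.12 ± 0.09 and Tlr3 by -0.17 ± 0.14. Itgae, the integrin CD103, read 949, 1007 and 755 in Clec9a gfp/gfp cells and 684, 609 and 627 in WT cells (0.48 ± 0.14, adjusted p = 0.76; untreated 0.45).

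Summed markers of several cell types had ranges that did not meet between the genotypes, and their part in the differences above was not tested. Those of the cDC1 list without Clec9a met, at 30759 to 31295 in Clec9a gfp/gfp samples with dead cells and 30392 to 33384 in WT samples. The summed intensity of 16 monocyte and macrophage markers was 3856 to 4431 in Clec9a gfp/gfp and 4138 to 4775 in WT samples with dead cells. That of 22 fibroblast and stromal markers was 11243 to 12238 and 10159 to 12943. That of 17 CD11b+ dendritic cell markers was 3187 to 3312 and 2804 to 3063, which did not meet. In that list 13 genes were above WT and 4 below it, with a median of 0.12. At an unadjusted p under 0.05, 1 of the 17 lay above WT and 2 below it, where 2.42% and 3.21% of all rows did. Esam, below WT, differed by -0.26 (adjusted p = 0.76, limma). Itgam (CD11b) read 220, 261 and 239 against 167, 182 and 138 (0.53 ± 0.18, adjusted p = 0.798), and Ccr2 120, 136 and 140 against 170, 200 and 203 (-0.48 ± 0.18, adjusted p = 0.815). The neutrophil list summed to 1074 to 1128 in Clec9a gfp/gfp and 825 to 1065 in WT samples, and the plasmacytoid list to 15074 to 15976 and 15986 to 17002, and neither pair of ranges met. In the plasmacytoid list, however, 10 of 15 genes were above WT, with a median of 0.06. Its sum includes Irf7, described above with the interferon-stimulated genes and the lowest member of the list at -0.15. B cell markers summed to 545 to 579 and 488 to 633, and T and NK cell markers to 2176 to 2321 and 2247 to 2312. Mast cell and erythroid markers summed to 1207 to 1325 and 1156 to 1208, and melanocyte and epithelial markers to 1165 to 1295 and 1079 to 1218. None of these marker genes other than Clec9a was called. Members with a mean under 16 with dead cells numbered 4 of 15 in the neutrophil list in each genotype, among them Ngp, a granule protein gene, at 0.44 to 3.15 and 0.0025 to 10.5. The ribosomal protein and reference genes had a median difference of -0.02.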

How the data were processed

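RNA of 12 samples was hybridised to Affymetrix whole-transcript arrays, 1 per sample. The deposited values are linear intensities, with the scale read from the values. Per the labels' protocols the RNA was column-purified, treated with DNase and labelled with biotin. Per the submitters' processing notes, the genome build was mm8. Software, background correction and normalization: not given in the sources used here. Intensity values that the authors deposited have unequal array medians. No batch was tested.

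Gene names came from the platform's annotation, updated to RefSeq through gene IDs. Of 23238 rows, 14939 had 1 symbol (14884 matched), 989 had several and 7310 were unnamed here. For the 131 genes with several rows, the brightest row on average was used. Of 712 list members, 132 had no single-symbol row.

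Groups came from the labels. Intensities became log2(value + 16), and all 12 arrays entered 1 limma fit (limma 3.58.1, R 4.3.3, lmFit and eBayes, a mean per group, two-sided), with p-values adjusted by Benjamini-Hochberg over all rows. Intervals are at 95%, from the moderated statistic, and are not adjusted for the number of rows. The smallest p that a permutation of 3 against 3 arrays allows is 0.1, so no permutation test was run. The fit was checked on simulated data. The number of arrays limits the precision.

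The members and the 31 gene lists were chosen with earlier results of these data known. Named genes are Clec9a, called genes, the 15 single-symbol rows of smallest p with dead cells, genes called untreated or in the change of the difference, and, per list, at most 4 by size of the averaged response and 2 by p with dead cells, plus the 3 brightest for marker lists; where the text singles out others, it says so, except promoter examples. Lists are described by counts and medians, without a test. Alternatives covered the pseudocount, scaling, filtering, the eBayes prior, array weights, the arrays fitted, the replicate block and leaving out each array.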

Additional observations from a re-analysis of the deposited data

Results flagged for a closer look

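Clec7a differed in its genotype difference between the treatments, by a test of that change across all 12 arrays. The difference was 1.15 with dead cells and 3.24 untreated, a change of -2.09 (adjusted p = 0.0219, limma). Its intensity with dead cells was lower than untreated by 1.45 on the log2 scale in Clec9a gfp/gfp cells and higher by 0.64 in WT cells. Over the alternatives the change ran between -2.44 and -1.98, the adjusted p between 0.0011 and 0.132, and the call held in 11 of 23. Groups of 3 arrays are too small for a search for single outlying samples.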

How the results depend on the processing

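The genotype comparison with dead cells called 1 row, Clec9a. It called 2 rows with a pseudocount of 1, 5 with 64, 0 without one (Clec9a lost, -9.93), 3 with quantile normalization, 3 with a shift to one median, 5 without the dimmest 25% of rows, 5 with 1 row per gene and 4 with a trended prior. Leaving out an array gave 1 to 3: 3 without WT dead cell replicate 2, and 2 without WT dead cell replicate 3, Clec9a gfp/gfp dead cell replicate 3 or Clec9a gfp/gfp untreated replicate 2. In untreated cells 7 rows were called, with 12 at a pseudocount of 64, 13 with 1 row per gene, 12 with a trended prior, 21 with array weights and 2 when only the 6 arrays were fitted, and between 2 and 9 on leaving out an array (2 to 4 without any 1 of the Clec9a gfp/gfp or the untreated WT arrays). The change in the difference called 1 row, with 0 at a pseudocount of 1, 2 at 64, 2 without one and 2 with a trended prior, and 0 to 2 on leaving out an array: 2 without WT dead cell replicate 2, and 0 without any other 1 except untreated replicate 2 of either genotype. The averaged response called 13157 rows, or 8177 at 1.5-fold or more, and 12474 to 13180 on leaving out an array. Its rises numbered 5128 and its falls 8029; these were 7971 and 6256 after quantile normalization, and 9250 and 6828 after equalising array medians. The median response of all rows was -0.03, 0.11 and 0.20 under these scalings. Rows with an interval within 2-fold numbered 20540, 14415 with 1 row per gene, where fewer rows were tested, and 16045 to 23042 over the other alternatives, 19485 to 20696 on leaving out an array. With the replicate block 1 row was called with dead cells, 3 untreated and 0 for the change. Deviations of same-numbered arrays correlated at -0.164 to 0.133. With 3 arrays per group, such values cannot show whether the numbers pair the samples, and the labels do not say. For named genes no called direction reversed; 53 values lost and 24 gained a call, and the cause was not tested.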
